A study of Mus musculus with 10 samples.

Results

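Transcripts of the neuronal cytoskeleton and of growing axons were compared between the deprived and the non-deprived visual cortex of wild-type C57Bl6 mice that had lost one eye. The 10 genes examined encode the neurofilament subunits (Nefl, Nefm, Nefh and Ina), proteins that bind microtubules or free tubulin (Map1b, Map2, Mapt and Stmn1) and membrane-associated proteins of the growth cone (Gap43 and Marcks). Every probe set other than the control probe sets whose single annotated symbol is one of these 10 names was taken, which gave 14 of the 10833 probe sets with a single symbol, and 10 of the 8251 genes these represent. Of the 14, 12 were bright enough to be tested and they cover 9 genes. The only Map1b probe set and the second Stmn1 probe set were too dim.

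The deprived group consisted of 5 samples from the side opposite to the lost eye (contralateral), and 5 samples from the same side as the lost eye (ipsilateral) made up the non-deprived group. The eye was removed at postnatal day 14 and visual cortex was cut from coronal slices 4 days later, at postnatal day 18. Both groups come from operated animals, so no intact cortex was measured. The labels mention pooled samples and 4 mice without saying which animals entered which sample, so the replicate spread behind the p-values may be partly technical. In whole tissue, fewer cells of a type and less RNA per cell cannot be told apart.

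Neurofilaments are the intermediate filaments of neurons. Nefl can form filaments with either of the longer subunits Nefm and Nefh, whose phosphorylated tails project from the filament, and Ina (alpha-internexin) joins them in the central nervous system and is made earlier in development than Nefh. Map2 marks dendrites and Mapt (tau) axons, Map1b is most abundant while axons grow, and stathmin (Stmn1) binds free tubulin and promotes microtubule disassembly. Gap43 and Marcks are protein kinase C substrates at the membrane of growth cones and presynaptic endings. The question is whether loss of the dominant eye's input was accompanied by other levels of these transcripts.

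Signals are MAS5 intensities in arbitrary units, on arrays scaled to a common level before deposit. Array medians lay between 191 and 209, and arrays of 1 group correlated at 0.957 to 0.979 across tested probe sets. The 3' to 5' ratio of beta-actin, a measure of RNA integrity, was 1.43 to 1.70 in deprived and 1.45 to 1.90 in non-deprived arrays. All 5 measured markers of cortical excitatory neurons had mean signals above 16, and so had the measured markers of every other list. This is a low bar, near the 10th percentile of all values (15.6), which the untested Stmn1 probe set also passed. Bright enough to be tested were 3 of 4 layer 5 markers, 6 of 7 oligodendrocyte markers and 7 of 8 microglial markers. Of the thalamus, striatum and hippocampus markers 7 of 8 were tested, and of the other lists all measured markers. Of the 8 marker lists and the beta-actin and Gapdh ratios, 10 measures in all, none had an adjusted exact two-sided permutation p below 0.555. The 2 smallest unadjusted exact values were 0.0794 for the summed microglial signal (5388 to 5872 in deprived against 4940 to 5713 in non-deprived cortex) and 0.111 for the vascular and meningeal signal (10145 to 17530 in deprived against 9693 to 13030 in non-deprived cortex). Ptgds was the brightest of the 8 vascular and meningeal genes, with means of 7380 in deprived and 5508 in non-deprived cortex. Of these 8 genes, 7 had log2 differences above 0 and 1, Cldn5, was below at -0.19. The part of the microglial and vascular signals in the differences below was not tested.

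No probe set of these genes passed the test between deprived and non-deprived cortex. The count was 0 of 12 at a limma adjusted p of 0.05, where 0 of all 7453 tested probe sets (0.0%) were called. At an unadjusted p under 0.05 there was 1 of the 12, Nefm, which was lower in deprived cortex, beside 2.36% of all tested probe sets that were lower at that threshold and 2.43% that were higher. Adjusted p-values of the 12 ran from 0.992 to 0.998 in limma. The median log2 difference was 0.003 over the 12 and 0.0066 over all tested probe sets, and 8 of the 12 differed by less than 0.1 on the log2 scale, as 55.2% of all tested probe sets did. Fold changes here are on the log2(signal + 16) scale, which understates those of dim probe sets. The 95% interval lay within a log2 difference of 0.5 in either direction for 11 of the 12, the exception being Map2, and for 76.5% of all tested probe sets. The deprived and non-deprived arrays overlapped for all 14 probe sets, while they did not overlap for 0.953% of those tested.

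**Figure D1:**
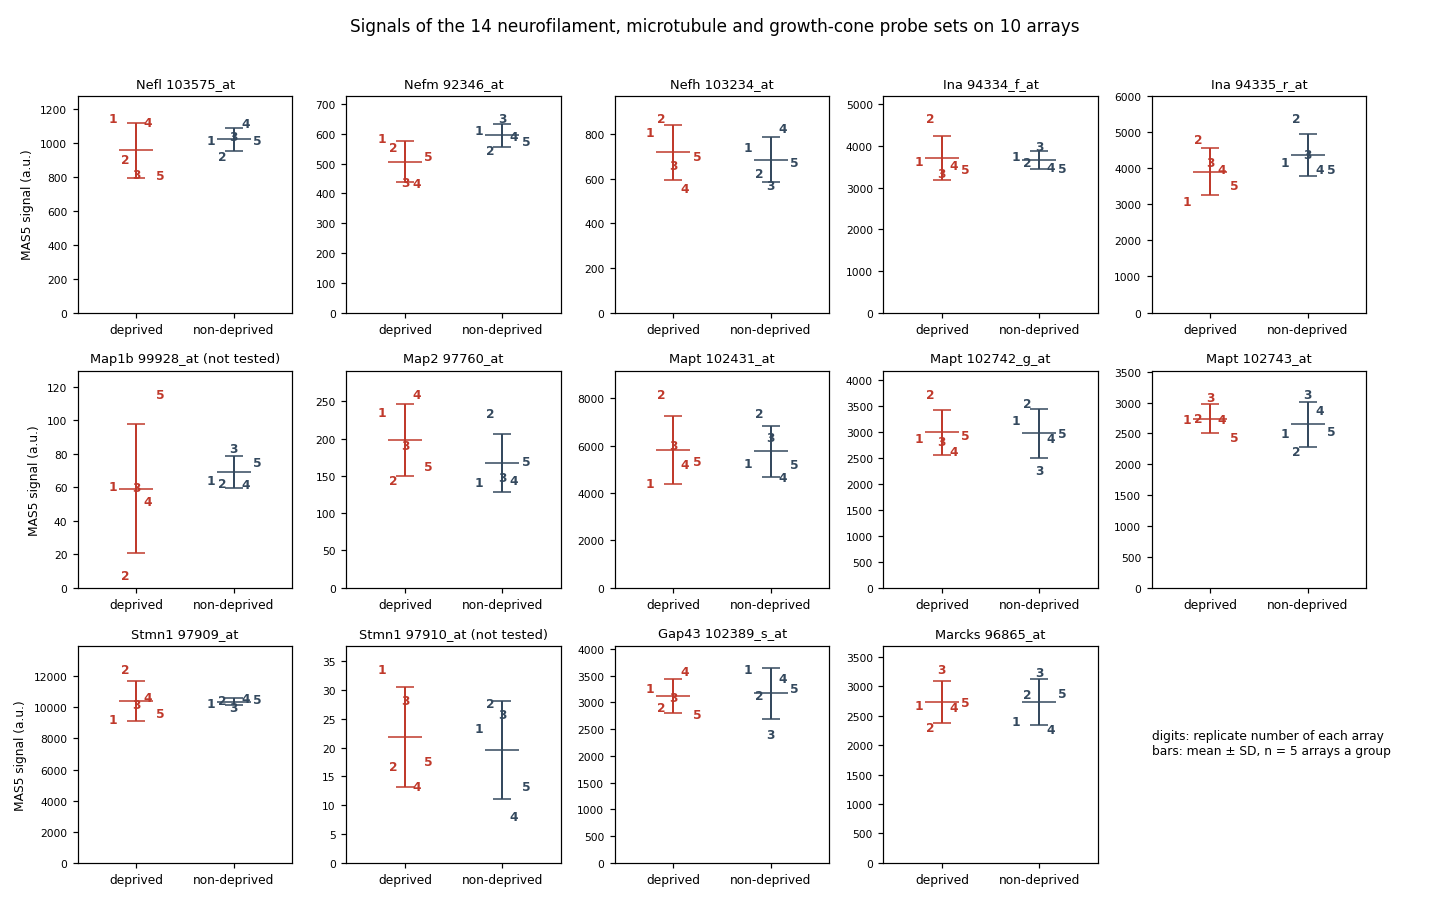
MAS5 signal in arbitrary units of each of the 14 probe sets on the 10 arrays, with deprived arrays on the left of each panel and non-deprived arrays on the right; digits are replicate numbers and bars give the mean ± SD of 5 arrays. The groups overlap in every panel, and Nefm has the clearest offset, with means of 506.0 in deprived and 594 in non-deprived cortex.

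Nefm, the medium subunit, had the largest difference among the neurofilament genes. Its signals were 583, 554, 436, 434 and 523 in deprived cortex, against 610.4, 545, 649.6, 592 and 575 in non-deprived cortex. All 5 deprived arrays lay below the non-deprived median and 3 lay below the lowest non-deprived array, while deprived replicates 1 and 2 lay above the lowest non-deprived array, replicate 2. The means were 506.0 ± 68.0 in deprived and 594 ± 39.3 in non-deprived cortex (SD, n = 5 each), a difference of -14.9%. The limma log2 difference was -0.23 ± 0.10 (SE), with a 95% interval from -0.46 to -0.01, an unadjusted p of 0.0419 and an adjusted p of 0.992. With single arrays left out the difference ran from -0.29 to -0.18 and the unadjusted limma p from 0.0186 to 0.106.

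Nefl, the light subunit on which the others assemble, lies near Nefm on mouse chromosome 14. In the RefSeq annotation 0 protein-coding genes and 1 other gene lie between them. Nefl signals were 1139, 902, 812, 1116 and 807 in deprived cortex, against 1012, 918, 1038, 1111 and 1014.5 in non-deprived cortex. The deprived arrays spread to both sides of the others, with 3 below the lowest and 2 above the highest non-deprived array. The coefficient of variation was 17.0% in deprived and 6.78% in non-deprived cortex. Nefl had a log2 difference of -0.10 ± 0.11 (SE; 95% interval from -0.34 to 0.13; limma adjusted p = 0.992).

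Nefh, the heavy subunit that accumulates as axons mature, had signals of 809, 869, 662, 555 and 702 in deprived cortex, against 742, 623, 569, 825 and 672 in non-deprived cortex. Both groups covered nearly the same range, and the log2 difference of 0.06 ± 0.13 (SE) had a 95% interval from -0.22 to 0.34. The estimate changed sign when deprived replicate 2 or non-deprived replicate 3 was left out.

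Ina was read by a pair of probe sets designed from the same sequence record. On the family-type probe set 94334_f_at the signals were 3632, 4649, 3343, 3536 and 3440.4 in deprived cortex, against 3748, 3614, 3996, 3493 and 3454 in non-deprived cortex. Deprived replicate 2 stood far above the other deprived arrays there, all of which lay in the lower part of the non-deprived range or under it. On the probe set of relaxed design rules, 94335_r_at, they were 3062, 4785, 4148, 3975 and 3509.5 in deprived cortex, against 4159, 5363, 4392, 3963 and 3966 in non-deprived cortex. Their log2 differences were 0.01 ± 0.09 and -0.17 ± 0.12 (SE), and neither passed (limma adjusted p = 0.996 and 0.992). The family-type estimate turned to -0.02 under median scaling of the arrays, which shifts all tested probe sets by -0.03.

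The axonal protein tau had no detectable difference on any of its 3 probe sets. Mapt 102431_at had signals of 4382, 8174, 6008, 5199 and 5346 in deprived cortex, against 5239.6, 7359, 6323, 4639 and 5194 in non-deprived cortex. Replicate 2 was the highest array of each group, and the other arrays of both groups lay between 4382 and 6323. This probe set was among the most variable of its brightness, with a residual SD above that of 94.4% of the 500 tested probe sets nearest in mean signal. Its log2 difference was 0.0053 ± 0.16 (SE; 95% interval from -0.33 to 0.34), and the sign turned to -0.03 under median scaling. The other probe sets gave 0.01 ± 0.12 (102742_g_at, from the same sequence record; -0.02 under median scaling) and 0.06 ± 0.10 (102743_at, from another record), with mean signals of 2989.7 in deprived against 2971 in non-deprived cortex for 102742_g_at and 2742 in deprived against 2649 in non-deprived cortex for 102743_at.

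Stmn1 had the narrowest interval of the 12 tested probe sets. On 97909_at the signals were 9192, 12453, 10212, 10644 and 9589.7 in deprived cortex, against 10276, 10414, 9993, 10591 and 10511 in non-deprived cortex. The non-deprived arrays varied by 2.27% (coefficient of variation) and the deprived arrays by 12.2%, with deprived replicate 2 the highest and deprived replicate 1 the lowest of the 10. The log2 difference was 0.0006 ± 0.08 (SE), with a 95% interval from -0.17 to 0.17, and it took the other sign under median scaling (-0.03) and quantile normalization (-0.01). The second Stmn1 probe set, 97910_at, had signals of 8 to 33.6 over the 10 arrays and was not tested.

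Map2, the dendritic protein, was dim but tested. Its signals were 236, 144, 190.5, 259.9 and 163 in deprived cortex, against 141, 235, 148, 144 and 169 in non-deprived cortex. Deprived replicates 1 and 4 lay above all non-deprived arrays, while the others fell inside the non-deprived range. The means were 199 ± 48.6 in deprived and 167 ± 39.2 in non-deprived cortex (SD, n = 5 each), and the log2 difference of 0.22 ± 0.18 (SE) had the widest interval of the 12 tested probe sets, from -0.17 to 0.62.

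Map1b, the protein of growing axons, was read only by a dim probe set that fell under the filter. Its signals were 60.6, 7.3, 60, 51.6 and 115.5 in deprived cortex, against 63.9, 61.9, 82.9, 61.7 and 74.9 in non-deprived cortex. Deprived replicate 2 was the lowest and deprived replicate 5 the highest of the 10, and the coefficient of variation was 65.2% in deprived and 13.7% in non-deprived cortex. With no filter, limma gave a log2 difference of -0.37 ± 0.36 (SE; 95% interval from -1.14 to 0.40; adjusted p = 0.959), which limits little.

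The growth-cone genes had nearly equal means. Gap43 had signals of 3263, 2898, 3089, 3586 and 2774 in deprived cortex, against 3620.3, 3121, 2391, 3449.8 and 3256 in non-deprived cortex. All deprived arrays lay inside the non-deprived range, whose lowest array was replicate 3. The log2 difference was -0.01 ± 0.11 (SE; 95% interval from -0.25 to 0.23). Marcks had signals of 2672, 2303, 3292, 2643 and 2728 in deprived cortex, against 2409.6, 2862, 3241, 2273 and 2888 in non-deprived cortex. Replicate 3 was the highest array in both groups, and the log2 difference was -0.0012 ± 0.11 (SE; 95% interval from -0.24 to 0.24), of the other sign at 0.02 under quantile normalization.

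**Figure D2:**
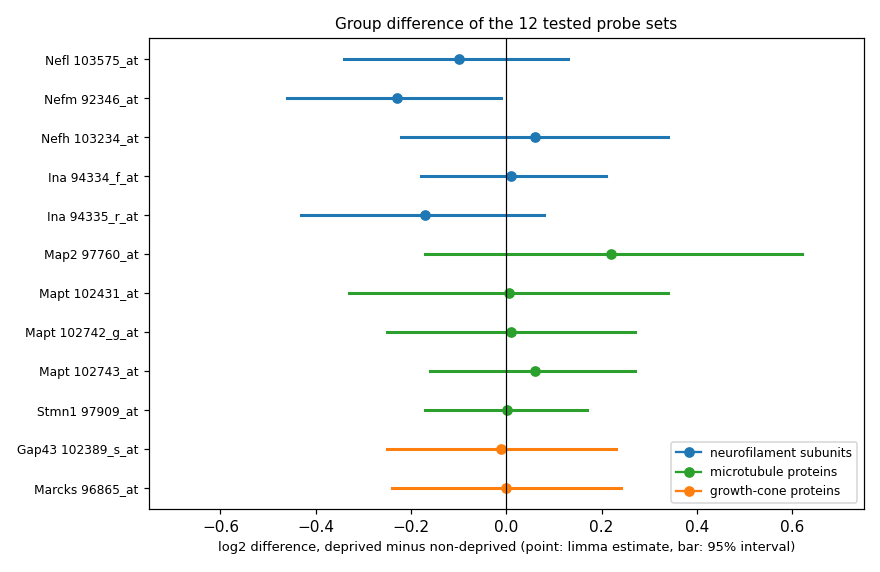
Log2 difference, deprived minus non-deprived, of the 12 tested probe sets, with limma 95% intervals; colours mark neurofilament subunits, microtubule proteins and growth-cone proteins. Nefm, with an interval from -0.46 to -0.01, is the only one whose unadjusted interval leaves out 0, and Map2 has the widest interval.

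Among the 10 members, 3 had a promoter entry in the RefSeq tables (GRCm38.p6), and the 250 bases upstream of their starts are shown because they cover an early neurofilament gene and the dendritic and growth-associated microtubule genes. Capitals mark the GC box GGGCGG on either strand. The windows are chr19:47014431-47014680 on the plus strand for Ina, chr1:66175079-66175328 on the plus strand for Map2 and chr13:99516603-99516852 on the minus strand for Map1b.
Ina: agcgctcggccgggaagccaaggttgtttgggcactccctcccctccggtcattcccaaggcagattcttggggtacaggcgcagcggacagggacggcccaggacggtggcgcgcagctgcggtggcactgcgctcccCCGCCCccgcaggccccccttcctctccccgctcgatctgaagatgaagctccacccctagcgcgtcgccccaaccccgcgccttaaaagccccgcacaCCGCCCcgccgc
Map2: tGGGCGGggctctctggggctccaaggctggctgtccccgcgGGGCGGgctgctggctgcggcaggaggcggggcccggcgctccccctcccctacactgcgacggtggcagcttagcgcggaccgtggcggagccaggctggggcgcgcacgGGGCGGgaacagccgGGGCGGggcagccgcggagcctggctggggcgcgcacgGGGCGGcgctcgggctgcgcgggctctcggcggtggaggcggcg
Map1b: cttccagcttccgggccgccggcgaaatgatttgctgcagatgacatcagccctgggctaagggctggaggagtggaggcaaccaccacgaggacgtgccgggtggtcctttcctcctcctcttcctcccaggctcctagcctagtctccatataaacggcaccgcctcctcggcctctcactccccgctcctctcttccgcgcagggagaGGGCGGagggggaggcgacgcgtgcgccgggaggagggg
The Ina window held 2 GC boxes, the Map2 window 5 and the Map1b window 1, and 32.7% of the 32851 promoter windows of this length held at least 1. Their G and C content was 70.8%, 81.2% and 66.4%, against a median of 52.4%. The letters of the cAMP response element TGACGTCA (in 1.55% of all windows), its shorter core TGACG, which the full element contains (17.8%), the AP-1 site TGACTCA (4.46%) and the serum response element (1.47%) were searched on both strands as elements known from activity-regulated genes. None of these letters occurred in the 3 windows, which says nothing of elements farther away.

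Ratios within each array, 3 in all, set members with different developmental courses against each other. The log2 ratio of Nefh over Nefl was -0.40 ± 0.36 in deprived and -0.57 ± 0.17 in non-deprived cortex (SD, n = 5 each), a difference of 0.17 (exact two-sided permutation p = 0.389). The ratio of Gap43 over Nefm was 2.59 ± 0.29 in deprived and 2.37 ± 0.29 in non-deprived cortex (SD, n = 5 each), a difference of 0.22 (exact permutation p = 0.302). Map1b over Map2, with both probe sets dim, was -1.68 ± 0.85 in deprived and -1.09 ± 0.36 in non-deprived cortex (SD, n = 5 each), a difference of -0.59 (exact permutation p = 0.19). All had an adjusted exact p of 0.389, where the smallest p the design allows is 0.00794. Only the group difference of such a ratio can be read, since signals of different probe sets are not on a common scale.

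No pair of neurofilament subunits passed a test of varying together from array to array. After subtraction of the group means, Nefm and Nefh had the highest correlation of the 6 pairs over the 10 arrays, with a Pearson r of 0.57 (permutation p = 0.139) and a Spearman rho of 0.58 (permutation p = 0.136). Without the 2 arrays farthest from the Nefm median, deprived replicates 3 and 4, r was 0.29. Nefl and Nefm, the neighbouring protein-coding genes, had r = 0.22 (permutation p = 0.565) and rho = 0.15 (permutation p = 0.713), and Nefl and Ina r = -0.48 (permutation p = 0.263). The smallest adjusted permutation p of the 6 pairs was 0.734 for r and 0.802 for rho. It is not known whether the 10 samples are independent of each other.

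Nor did any pair of probe sets of the same gene pass, in a comparison added after the data were seen. The Ina probe sets had r = 0.48 over 10 arrays (permutation p = 0.258; rho = 0.38, permutation p = 0.351), which dropped to -0.05 without deprived replicate 2 and non-deprived replicate 3. The Mapt probe sets of the same record, 102431_at and 102742_g_at, had r = 0.47 (permutation p = 0.196; rho = 0.38, permutation p = 0.308), and without replicate 2 of both groups r took the other sign, -0.52. For 102431_at and 102743_at r was -0.11 (permutation p = 0.747; rho = -0.01, permutation p = 1.0), and 0.46 without the same arrays. Finally, 102742_g_at and 102743_at had r = -0.66 (permutation p = 0.0578; rho = -0.59, permutation p = 0.0912). Without deprived replicate 2 and non-deprived replicate 3, r of this pair stayed at -0.66. The adjusted permutation p over these 4 pairs was at least 0.231.

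**Figure D3:**
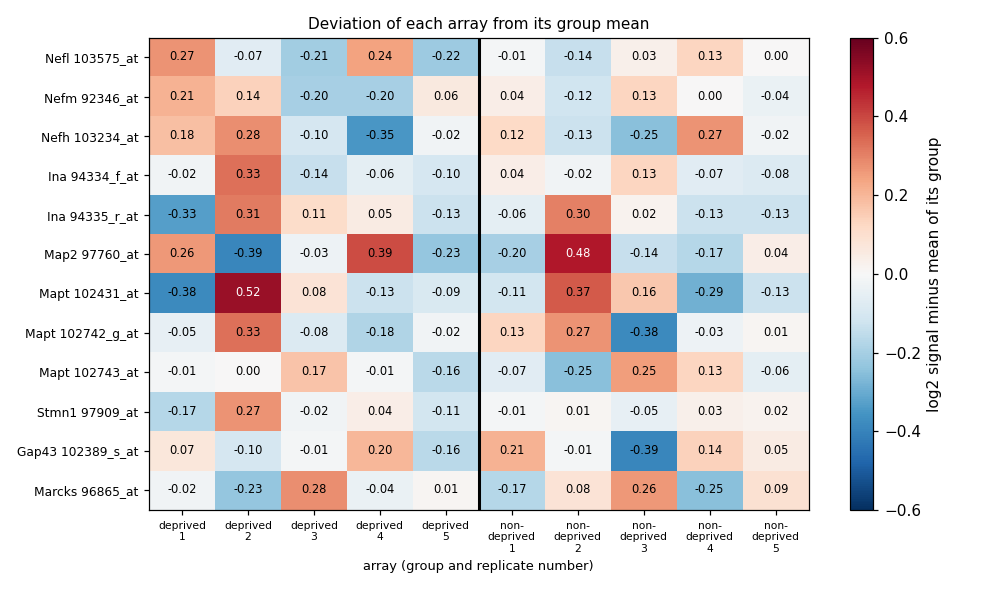
Deviation of each array from the mean of its own group, in log2 units, for the 12 tested probe sets (rows) and the 10 arrays (columns, deprived on the left). Deprived replicate 2 is high for Nefh (0.28), Ina, Stmn1, Mapt 102431_at (0.52) and Mapt 102742_g_at (0.33), but not for Mapt 102743_at (0.0). The same array is low for Map2 at -0.39. Non-deprived replicate 2 is high for Map2 (0.48) and Mapt 102431_at (0.37).

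Deprived replicate 2 carried the highest signal of all 10 arrays for 5 of the 12 tested probe sets (Nefh, Ina 94334_f_at, Mapt 102431_at, Mapt 102742_g_at and Stmn1 97909_at) and the lowest for none of them. The 2 Mapt probe sets come from the same sequence record. How many of all tested probe sets peaked on that array was not counted, so this is not read as particular to these genes. That array also had the highest Gapdh 3' to 5' ratio, 1.16, and the highest summed signal of layer 5 projection neuron markers, 15882, where the other deprived arrays had 12012 to 12959 and the non-deprived arrays 12038 to 13639. Thy1 made up most of the layer 5 sum, with a mean of 11692 beside a mean sum of 13321 in deprived cortex. On deprived replicate 2 the summed signal of thalamus, striatum and hippocampus markers was likewise the highest, 4241. The other deprived arrays had 3216 to 3754 and the non-deprived arrays 3377 to 3629. The beta-actin 3' to 5' ratio of deprived replicate 2, 1.43, was the lowest of the 10, so the 2 ratios lay at opposite ends on that array. Their part in its high values was not tested. Without that array the log2 differences of these 5, which leaving out their highest array must lower, were -0.07 for Ina 94334_f_at, -0.12 for Mapt 102431_at, -0.07 for Mapt 102742_g_at, -0.07 for Stmn1 97909_at and -0.01 for Nefh. For the others, Gap43 was at 0.01, Marcks at 0.06, Map2 at 0.32, Nefl at -0.09, Nefm at -0.27, Ina 94335_r_at at -0.25 and Mapt 102743_at at 0.06 without it. Spread was larger in deprived than in non-deprived arrays for 8 of the 12 probe sets (66.7%), as it was for 61.3% of all tested probe sets.

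The wider set of cytoskeleton and growth genes gave no calls either. Its 6 lists, with 99 tested genes in all, held none that passed an adjusted limma p of 0.05, and at an unadjusted p under 0.05 there were 2 lower and 0 higher, or 2.02% beside 4.79% of all tested probe sets. Both lower genes were beta-tubulins, which build the microtubule wall. Tubb3, the neuronal beta-tubulin, had signals of 7796, 7130.4, 9039, 7627 and 9549.5 in deprived cortex, against 9512, 10049, 9124, 10070.4 and 9867 in non-deprived cortex. Of the deprived arrays 4 lay below the lowest non-deprived array, and replicate 5 lay inside the range. Tubb5, a widely expressed beta-tubulin, had signals of 10879, 9617, 10618, 9138 and 10989.7 in deprived cortex, against 11302, 11454, 11597, 11535 and 11623 in non-deprived cortex. Its deprived arrays were all below its non-deprived arrays, which in either direction holds for 0.953% of all tested probe sets. The log2 differences were -0.25 ± 0.09 for Tubb3 and -0.17 ± 0.07 for Tubb5 (SE; limma unadjusted p = 0.0113 and 0.0279, adjusted p = 0.992 for both). Both probe sets are of the family type, whose probes match related sequences, and second probe sets of the same genes gave 0.03 for Tubb3 and -0.07 for Tubb5. Tuba1c, the alpha-tubulin with the brightest probe set of the list, also of the family type, had -0.02 ± 0.08. The 14 tested tubulins and cofactors had a median of -0.03, with 6 estimates above and 8 below 0.

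The other lists had medians close to 0, and those of the microtubule-associated proteins (-0.03), the motors (-0.03) and the intermediate filaments (-0.0054) took the other sign under median scaling. The 19 other microtubule-associated proteins had a median of 0.0038 and a range from -0.12 to 0.13, with the end-binding protein Mapre2 at -0.12 ± 0.10 and the stathmin relatives Stmn3 at -0.11 ± 0.10 and Stmn2 at 0.0038 ± 0.09 (SE). The 20 other growth-cone and outgrowth genes had a median of -0.0052, with Dpysl2 (CRMP2, which promotes tubulin assembly) at 0.19 ± 0.10. The actin-binding profilin gene Pfn1 had -0.36 ± 0.22 on a dim probe set, with means of 178 in deprived and 225 in non-deprived cortex. Basp1, a membrane protein related in function to Gap43, had 0.07 ± 0.10. The 23 kinases, phosphatases and regulators had a median of -0.04, with 7 estimates above and 16 below 0. Ppp2ca, the catalytic subunit of the main tau phosphatase, had -0.19 ± 0.10, Prkce -0.18 ± 0.11 and the tau kinase gene Gsk3a -0.01 ± 0.11. The 16 axonal motor genes had a median of 0.0053, with the kinesin heavy chains Kif5b at -0.18 ± 0.12 and Kif5c at 0.21 ± 0.19 and the dynein light chain Dynll1 at 0.04 ± 0.08. The 7 other intermediate filament genes and linkers had a median of 0.03, with the nuclear lamin Lmna at -0.14 ± 0.09 and the linker Plec at 0.25 ± 0.15.

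**Figure D4:**
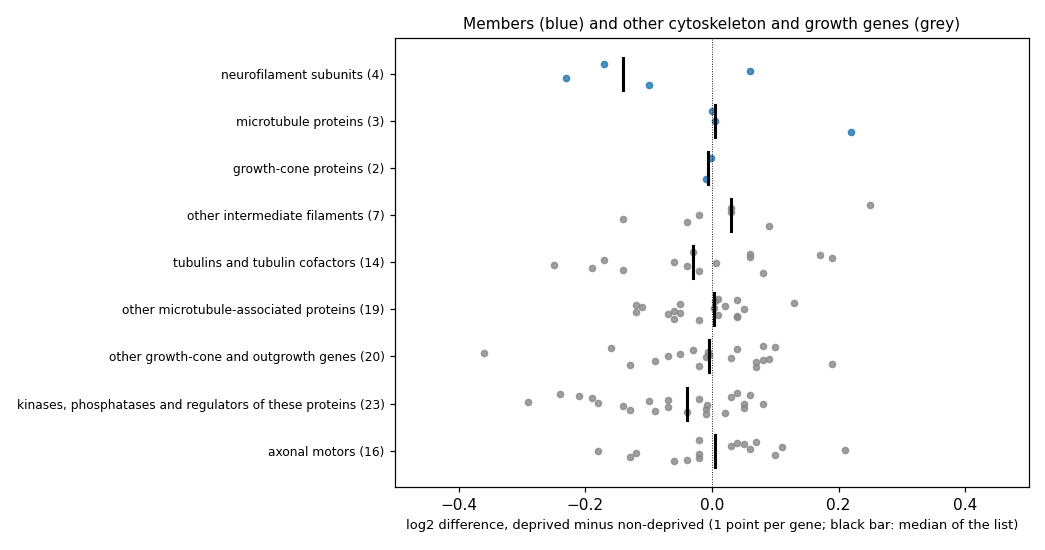
Log2 difference, deprived minus non-deprived, of the members by role (blue) and of the genes of 6 further lists (grey), 1 point per gene by its brightest tested probe set, with the number of genes in brackets and the median as a black bar. Medians of the 6 further lists lie between -0.04 and 0.03.

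The probe sets whose signal followed the mean log2 profile of the 4 neurofilament genes most closely over the 10 arrays, out of 6730 others with 1 symbol, were those of Prkcb (protein kinase C beta; Pearson r = 0.93), the clock gene Per1 (0.91), the mitochondrial import gene Timm9 (0.91), Auh (0.90) and Srcin1 (0.87). They were picked as the highest of all correlations, and the profile includes the Ina probe set of relaxed design rules. All 5 had lower means in deprived cortex, with log2 differences of -0.14 ± 0.08, -0.16 ± 0.11, -0.29 ± 0.18, -0.07 ± 0.10 and -0.16 ± 0.14 in the order named (SE; limma adjusted p = 0.992 each). The profile was itself lower on average in deprived cortex and was not centred by group, so the choice of probe sets favours this direction. The Prkcb value is that of its dimmer probe set, with means of 1561 in deprived and 1721 in non-deprived cortex. The brighter Prkcb probe set, with means of 11719 in deprived and 11119.5 in non-deprived cortex, differed by 0.08 ± 0.08 (SE), of the other sign.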

How the data were processed

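RNA from 10 visual cortex samples was hybridised to 1 Affymetrix array each. The deposited values are MAS5 signal intensities on a linear scale, per the submitters' processing notes; for the version and the scaling target, the sources used here give nothing. Trimmed means of the deposited intensities were 500.2 to 500.3 on every array, so they had been scaled before deposit. Precision is limited by the number of arrays, 5 a group. Symbols came from the platform annotation, updated through Entrez IDs: of 12422 probe sets other than controls, 10833 had 1 symbol, 396 several and 1193 none.

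Intensities were taken as log2(value + 16), and the 7453 probe sets with a mean at or above the 40th percentile were tested in limma 3.58.1 (R 4.3.3; eBayes with trend, no covariate) with Benjamini-Hochberg adjustment over all of them at 0.05. The fit was also run on simulated independent arrays, which says nothing of samples that may share animals. Exact two-sided permutation tests were used for ratios and array measures, and correlations were tested with 100000 permutations within groups. Each list gene was taken by its brightest tested probe set, and of each pathway list the 2 genes with the smallest p and the brightest were named. Tubb3 and Tubb5 by array were chosen after their values were seen. Marker lists are given as summed signals. The members and lists were chosen with earlier results of these data known. Alternatives were pseudocounts of 4 and 64, no filter or the 60th percentile, median scaling, quantile normalization, no trend, the replicate number as a block, the actin ratio as a covariate and leaving out each array.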

Additional observations from a re-analysis of the deposited data

Results flagged for a closer look

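In groups of 5 arrays, an array was singled out when its gap to the nearest other array exceeded 0.71 of the group's range. Of 34 groups (the 14 probe sets and 3 ratios in each condition), 3 met this, and chance alone gives about 1 in 20. Deprived replicate 2 had a signal of 4649.2 for Ina 94334_f_at, where the next deprived array had 3632. The same array had 3728.2 for Mapt 102742_g_at, where the next deprived array had 2922. The log2 ratio of Gap43 over Nefm was 1.85 in non-deprived replicate 3, where the next non-deprived array had 2.47.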

How the results depend on the processing

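No member probe set passed an adjusted limma p of 0.05 under any of the 19 alternatives, and the lowest adjusted p was 0.763, for Ina with the replicate block. Over all tested probe sets the count past the threshold was 0 in the main setting (357 at an unadjusted p under 0.05). It was 2 under the 60th percentile filter or the pseudocount of 64 (Junb and Dusp6, both lower), 1 with the actin ratio as a covariate (Dusp6, lower), and 6 (Capn1, Dusp1, Dusp6, Fos, Junb and Nr4a1, each lower) with the replicate number as a block. With single arrays left out it ran from 0 to 5: 1 without deprived replicate 4 (Junb), 5 without non-deprived replicate 1 (Btg2, Junb, Nr4a1, Fos and Dusp6), and 0 without any other. These genes were named after their values were seen. Same-numbered samples correlated in their deviations at 0.14, 0.182, 0.222, 0.227 and 0.022, and 4 of 5 deprived arrays matched their own number best, which is a hint from the data and not from the design. With the replicate block the unadjusted limma p of Nefm was 0.0564, above 0.05, at the same log2 difference of -0.23.

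Of the 12 tested probe sets, 4 (Nefl, Nefm, Map2 and Ina 94335_r_at) kept their sign in every alternative in which they were tested, Map2 being left out by the 60th percentile filter. With single arrays left out Nefl ran from -0.17 (without deprived replicate 1) to -0.05 (without deprived replicate 3 or 5), Map2 from 0.12 (without deprived replicate 4) to 0.34 (without non-deprived replicate 2) and Ina 94335_r_at from -0.25 (without deprived replicate 2) to -0.09 (without deprived replicate 1). The log2 differences of the others, all near 0, changed sign as follows. Under median scaling they were -0.02 for Ina 94334_f_at and Mapt 102742_g_at and -0.03 for Mapt 102431_at and Stmn1 97909_at. Under quantile normalization they were 0.02 for Marcks and -0.01 for Stmn1, and with the actin ratio as a covariate 0.0016 and -0.0006 for the same genes. With single arrays left out they ran from -0.11 to 0.04 for Gap43, -0.07 to 0.06 for Marcks, -0.07 to 0.05 for Ina 94334_f_at, -0.12 to 0.10 for Mapt 102431_at, -0.08 to 0.08 for Mapt 102742_g_at, -0.01 to 0.12 for Mapt 102743_at, -0.01 to 0.15 for Nefh and -0.07 to 0.04 for Stmn1. The cause was not tested. Of the 6 lists, the median of the kinases ran from -0.11 to 0.0017 over single omissions, lowest without non-deprived replicate 2. That of the other intermediate filaments ran from -0.04 to 0.04, lowest without deprived replicate 5. No ratio changed sign or passed; Gap43 over Nefm ran from 0.09 to 0.28, lowest without non-deprived replicate 3. Nefh over Nefl ran from 0.08 (without deprived replicate 2) to 0.31 (without deprived replicate 4). Map1b over Map2 ran from -0.90 (without deprived replicate 5) to -0.32 (without deprived replicate 2, whose Map1b signal of 7.3 is below the pseudocount). It was -0.78 with a pseudocount of 4 and -0.35 with a pseudocount of 64. Low signals limit what Map1b and Map2 can show.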
